A study of Mus musculus with 7 samples.

Results

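The 9 genes described here encode phosphatases of the dual specificity family that act on MAP kinases, namely Dusp1, Dusp2, Dusp3, Dusp4, Dusp5, Dusp6, Dusp7, Dusp10 and Dusp16. They were chosen by name, and they are 9 of the 18193 genes that had a probe set carrying a single gene symbol on the array. All 9 had such a probe set, and 4 of them had several, which makes 15 probe sets in all. Where a gene had several, the one with the highest mean signal was used, averaged over the 7 arrays, and the others are reported beside it.

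The samples were bone marrow derived macrophages of the mouse, cultured in 7 ways and hybridised to 1 Affymetrix array each. The study asked, per its title, how genes induced by MDP and by Pam3CSK4 behave in naive and in tolerant macrophages. MDP (muramyl dipeptide) is a fragment of bacterial cell wall that is sensed inside the cell through NOD2, and Pam3CSK4 is a synthetic lipopeptide that is sensed at the surface through TLR2 with TLR1. Macrophages were kept for 24 h without ligand, with MDP or with Pam3CSK4, and were then stimulated for 3 h. Without pretreatment (naive) there was 1 culture left unstimulated, 1 given MDP and 1 given Pam3CSK4. After MDP pretreatment 1 culture was given MDP and 1 Pam3CSK4, and after Pam3CSK4 pretreatment 1 was given MDP and 1 Pam3CSK4. The labels print the doses as 10 mg/ml of MDP and 1 mg/ml of Pam3CSK4, and these units were not checked against another source. Strain, genotype, age and the number of mice are not given in the sources used here.

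MAP kinases (ERK, JNK and p38) are switched on by phosphorylation of a threonine and a tyrosine, and dual specificity phosphatases switch them off by removing both phosphates. Many of the genes are themselves transcribed in response to MAP kinase signalling, so that the phosphatases form a negative feedback loop. In macrophages Dusp1 is the best known of them, as an early gene of Toll-like receptor signalling that limits p38 and JNK activity and cytokine production. The members described here divide by location and substrate. Dusp1, Dusp2, Dusp4 and Dusp5 are nuclear. Dusp6 and Dusp7 are cytoplasmic and selective for ERK. Dusp10 and Dusp16 are selective for JNK and p38, and Dusp3 is a small atypical member without the kinase-binding domain of the others.

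The promoters of 4 members are shown, picked from those whose genes carried the differences described below in naive or in Pam3CSK4-pretreated cells. Dusp16 carried such a difference too, and its window is not printed. Each is the run of 250 bases that ends just before the RefSeq transcription start (GRCm38.p6), 5′ to 3′ on the strand of the gene, and capitals mark motif matches. The windows are chr17:26508473-26508722 on the minus strand for Dusp1, and chr2:127335909-127336158, chr19:53528895-53529144 and chr10:99262981-99263230 on the plus strand for Dusp2, Dusp5 and Dusp6.
Dusp1: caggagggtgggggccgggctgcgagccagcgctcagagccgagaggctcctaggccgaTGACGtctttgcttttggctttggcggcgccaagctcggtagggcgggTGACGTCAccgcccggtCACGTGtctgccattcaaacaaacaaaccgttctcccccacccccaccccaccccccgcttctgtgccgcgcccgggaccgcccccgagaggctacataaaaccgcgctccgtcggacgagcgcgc
Dusp2: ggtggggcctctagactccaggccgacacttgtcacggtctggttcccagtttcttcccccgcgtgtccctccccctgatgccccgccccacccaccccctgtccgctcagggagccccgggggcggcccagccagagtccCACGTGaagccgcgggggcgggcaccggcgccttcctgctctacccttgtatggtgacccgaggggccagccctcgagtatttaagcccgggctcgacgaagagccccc
Dusp5: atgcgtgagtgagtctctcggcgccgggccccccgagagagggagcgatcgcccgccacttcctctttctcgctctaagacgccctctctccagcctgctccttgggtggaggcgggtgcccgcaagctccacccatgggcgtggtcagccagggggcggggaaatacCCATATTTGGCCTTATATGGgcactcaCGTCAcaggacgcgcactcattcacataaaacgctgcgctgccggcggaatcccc
Dusp6: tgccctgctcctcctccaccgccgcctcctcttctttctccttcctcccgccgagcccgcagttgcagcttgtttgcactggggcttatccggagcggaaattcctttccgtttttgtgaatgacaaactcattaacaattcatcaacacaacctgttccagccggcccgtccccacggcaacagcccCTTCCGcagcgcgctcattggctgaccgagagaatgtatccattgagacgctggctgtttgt

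The 7 motifs searched, on both strands, were the cAMP response element (CRE) TGACGTCA, its core TGACG, the AP-1 motif TGANTCA, the E-box CACGTG, the ETS motif CGGAAG, the CArG box and the NF-kB motif. Dusp1 had a CRE at 143 to 136 bases before the start, an E-box at 126 to 121 and 3 core matches, 2 of them within the CRE and the other at 191 to 187. Dusp2 had an E-box at 109 to 104. Dusp5, which encodes a nuclear ERK phosphatase, had 2 adjoining CArG boxes, the motif bound by serum response factor, at 82 to 73 and 72 to 63, and a core match on the other strand at 55 to 51. Dusp6 had an ETS match on the other strand at 62 to 57. Of 32851 mouse promoter windows of this length, a CRE was present in 1.55%, the core in 17.8%, the AP-1 motif in 6.75%, the E-box in 6.02%, the ETS motif in 13.6%, a CArG box in 1.47% and the NF-kB motif in 7.25%. Among the members whose window is not printed, Dusp16 had a core match at 70 to 66, and none of the motifs was present in the windows of Dusp3, Dusp7 and Dusp10. The windows of 8 of the 9 members were in the table used, and that of Dusp4 is not analysed here. A match describes letters in the window and no binding was measured.

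The values are log2 signals, on which a difference of 1.00 is 2-fold. The arrays had medians of 5.48 to 5.55 over all probe sets, and a signal below its array's median cannot be told from background here. With 1 array per group there was no spread between cultures, so no p-value is given and neighbouring levels in any order cannot be told apart by a test. A difference is called at 2-fold or more, and the share of all genes called in the same comparison is given beside the members' count. Levels of different genes come from different probes and are not compared with each other. In these bulk samples fewer cells of a type and less RNA per cell cannot be told apart. Macrophage markers were above the array median on every array for 9 of 9 genes measured, with a list mean of 12.7 to 13.2. Single macrophage markers varied with the treatment. Mertk, a receptor for apoptotic cells, was at 9.89 in unstimulated cells, 7.60 and 8.10 with Pam3CSK4 in naive and in MDP-pretreated cells and 8.71 to 9.67 on the other arrays, and the integrin gene Itgam was at 11.7 on each array of Pam3CSK4-pretreated cells against 10.3 to 10.7 elsewhere. Mean signals were 8.60 to 8.92 for 7 neutrophil markers, 5.99 to 6.22 for 6 T and NK cell markers, 5.50 to 5.85 for 5 B cell markers, 5.14 to 5.39 for 6 dendritic cell markers, 5.30 to 5.74 for 6 stromal markers and 4.90 to 5.03 for 5 mast and erythroid cell markers. The stromal mean was 5.30 to 5.39 on the other arrays and 5.74 and 5.67 on the arrays of Pam3CSK4-pretreated cells. On those arrays the stromal gene Dcn was at 8.34 and 8.03, against 6.28 to 6.69 elsewhere. Of the 6 stromal genes, 4 were below the array median on every array. Col1a2 was at 6.50 and 6.51 on the arrays of Pam3CSK4-pretreated cells, against 6.18 to 6.34 elsewhere. Of the neutrophil genes, S100a8 was at 12.1 on each of these 2 arrays against 11.0 to 11.3 elsewhere, while Ltf was at 6.88 and 6.41 against 7.57 to 8.15. The 18S control probe sets were 1.70 higher than in unstimulated cells, on the log2 scale, in cells given Pam3CSK4 after Pam3CSK4, and 0.28 to 0.48 higher on the other arrays. The part of these marker and control signals in the differences below was not tested.

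In naive macrophages Pam3CSK4 was accompanied by higher signals of Dusp2 (9.80-fold), Dusp1 (2.97-fold) and Dusp16 (2.13-fold) and a lower signal of Dusp6 (9.74-fold), while MDP left every member within 2-fold of unstimulated cells. With Pam3CSK4, 3 of 9 members were at least 2-fold higher, where 2.27% of all genes were, and 1 of 9 was lower, where 1.95% of all genes were. At the 3-fold threshold that the series used to define induced genes, 1 member, Dusp2, was higher, against 1.28% of all genes, and 1, Dusp6, was lower, against 0.605%. With MDP no member was called at 2-fold in either direction, against 0.583% of genes higher and 0.17% lower, and none at 3-fold, against 0.22% and 0.0055%. The members' median difference was 0.18 with Pam3CSK4 and 0.19 with MDP, and the median over all genes was 0.00 in each.

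**Figure D1:**
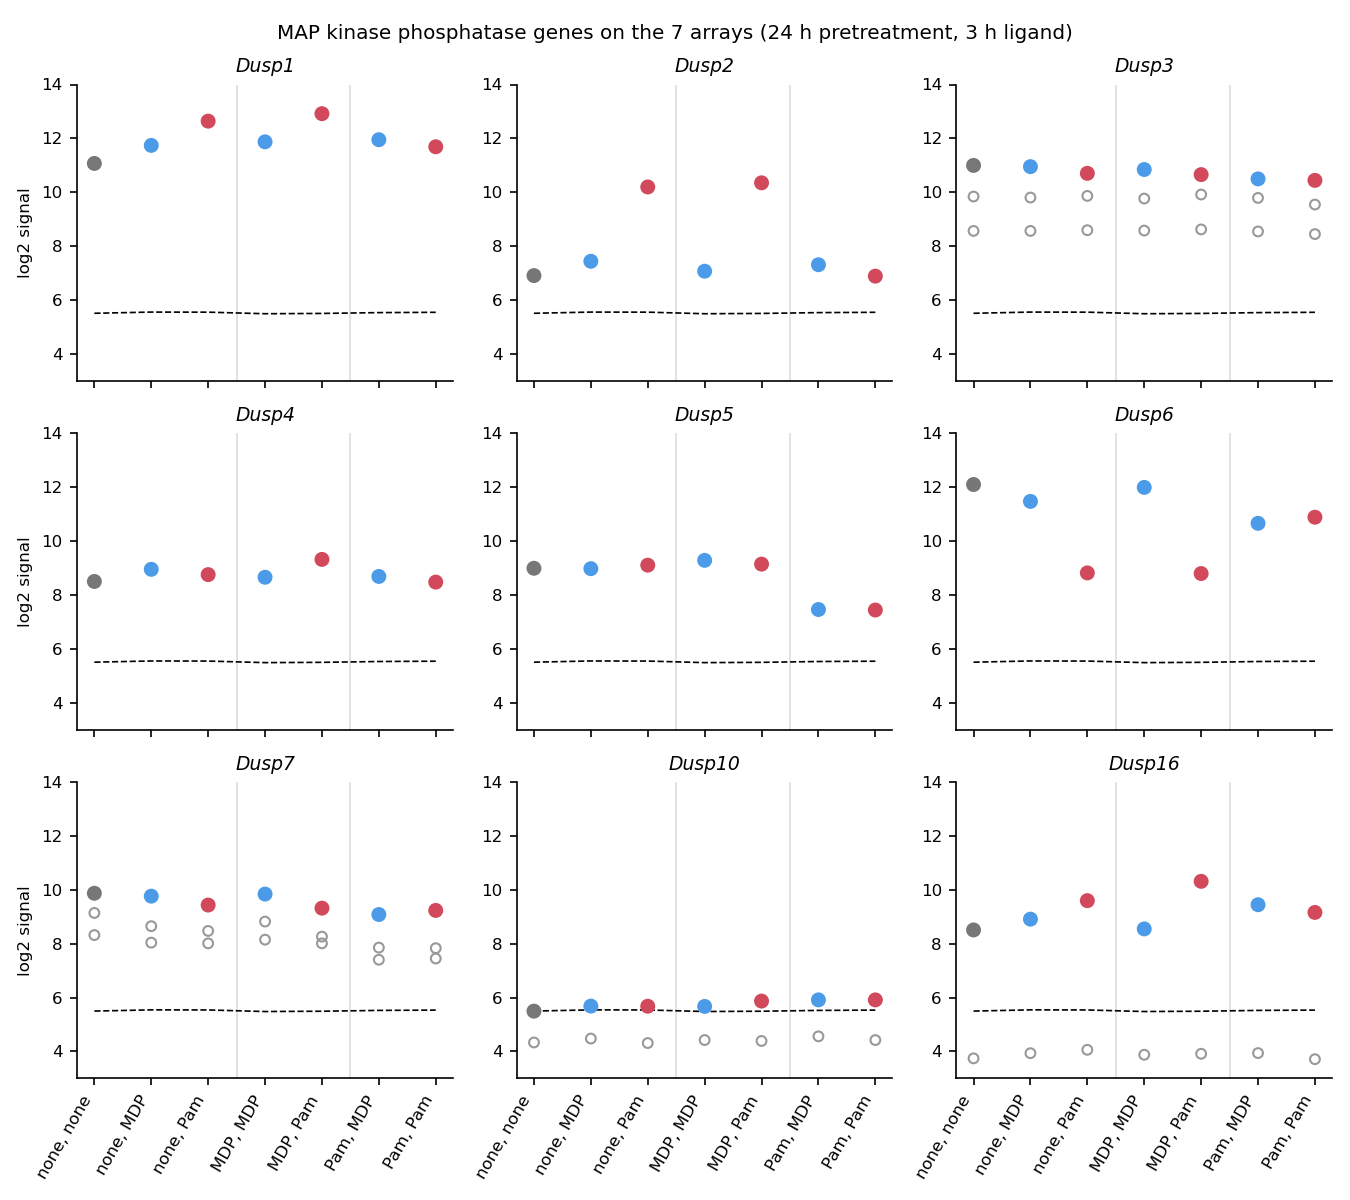
Log2 signal (vertical axis) of each of the 9 genes on the 7 arrays, labelled by pretreatment and then ligand (Pam is Pam3CSK4). Filled points are the probe set used, grey for unstimulated, blue for MDP and red for Pam3CSK4 as the ligand of the last 3 h. Open points are other probe sets of the gene, the dashed line is the array median and vertical lines separate the pretreatments. Dusp2 reaches 10.2 and 10.3 and Dusp6 drops to 8.82 and 8.79 on the arrays given Pam3CSK4 without Pam3CSK4 pretreatment, and Dusp5 is at 7.46 and 7.44 after Pam3CSK4 pretreatment.

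Dusp1, the nuclear phosphatase that limits p38 and JNK signalling, was highest in cells given Pam3CSK4 without earlier Pam3CSK4. It was at 11.07 in naive unstimulated cells, 11.74 in naive cells given MDP, 12.64 in naive cells given Pam3CSK4, 11.87 with MDP after MDP, 12.92 with Pam3CSK4 after MDP, 11.95 with MDP after Pam3CSK4 and 11.69 with Pam3CSK4 after Pam3CSK4. All 6 stimulated cultures lay above the unstimulated one, by 0.62 to 1.85. The naive difference was 0.67 with MDP, where 219 of the 18193 genes lay higher, and 1.57 with Pam3CSK4, where 235 did. In cells given Pam3CSK4 again the signal was 1.94-fold below that of naive cells given it, just short of 2-fold, and -1.01 on the log2 scale with each array centred on its median gene.

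Dusp2, a nuclear phosphatase induced in activated leukocytes, separated the arrays into 2 sets. It was at 6.90 in naive unstimulated cells, 7.43 in naive cells given MDP, 10.19 in naive cells given Pam3CSK4, 7.06 with MDP after MDP, 10.35 with Pam3CSK4 after MDP, 7.31 with MDP after Pam3CSK4 and 6.88 with Pam3CSK4 after Pam3CSK4. The 2 cultures that met Pam3CSK4 in the last 3 h only lay 2.76 or more above each of the other 5. In naive cells the difference with Pam3CSK4 was 3.29, and 38 of the 18193 genes lay higher. After Pam3CSK4 pretreatment the value with Pam3CSK4 differed from the unstimulated value by -0.02, and it was 9.93-fold below naive cells given Pam3CSK4, a comparison in which 6 genes lay lower.

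Dusp4, a nuclear relative of Dusp1, varied little. Its signal ran from 8.48 with Pam3CSK4 after Pam3CSK4 to 9.32 with Pam3CSK4 after MDP, with 8.50 in unstimulated cells, 8.95 in naive cells given MDP and 8.75 in naive cells given Pam3CSK4. The value with MDP was 8.66 after MDP and 8.69 after Pam3CSK4. No comparison of 2 arrays reached 2-fold for it, and the span over the 7 arrays was 0.84.

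Dusp5, the nuclear phosphatase specific for ERK, was lower after Pam3CSK4 pretreatment, whichever ligand followed. It was at 8.99 in naive unstimulated cells, 8.97 in naive cells given MDP, 9.11 in naive cells given Pam3CSK4, 9.28 with MDP after MDP, 9.14 with Pam3CSK4 after MDP, 7.46 with MDP after Pam3CSK4 and 7.44 with Pam3CSK4 after Pam3CSK4. The 2 cultures pretreated with Pam3CSK4 lay below the other 5, 2.89-fold and 2.93-fold below unstimulated cells. They differed from each other by -0.02. The 18S controls on these arrays were 0.48 and 1.70 above unstimulated.

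Dusp6, a cytoplasmic ERK phosphatase and a feedback gene of ERK signalling, differed in the opposite direction from Dusp2 where Pam3CSK4 was given without Pam3CSK4 pretreatment. It was at 12.10 in naive unstimulated cells, 11.47 in naive cells given MDP, 8.82 in naive cells given Pam3CSK4, 11.99 with MDP after MDP, 8.79 with Pam3CSK4 after MDP, 10.66 with MDP after Pam3CSK4 and 10.89 with Pam3CSK4 after Pam3CSK4. The 2 cultures that met Pam3CSK4 in the last 3 h only were the lowest, 9.74-fold and 9.90-fold below unstimulated cells, and in the naive comparison 2 of the 18193 genes lay lower still. The 2 cultures pretreated with Pam3CSK4 lay in between, 2.72-fold below unstimulated cells when MDP followed and 2.32-fold below when Pam3CSK4 followed. Against naive unstimulated cells, MDP went with a difference of -0.63 in naive cells, where 184 genes lay lower. Cells given MDP after MDP differed from the same unstimulated culture by -0.11. There was no MDP-pretreated culture without a later ligand to compare them with.

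Dusp7, the other cytoplasmic ERK phosphatase among the members, ran from 9.88 in unstimulated cells to 9.09 with MDP after Pam3CSK4. Naive cells given MDP had 9.77 and those given Pam3CSK4 9.44, cells pretreated with MDP had 9.85 with MDP and 9.32 with Pam3CSK4, and cells given Pam3CSK4 again had 9.24. The unstimulated value was the highest for all 3 probe sets of the gene. The other 2 probe sets went from 9.15 to 7.86 and 7.84, and from 8.33 to 7.41 and 7.45, between unstimulated cells and the 2 cultures pretreated with Pam3CSK4, so that one of them passed 2-fold where the probe set used did not.

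Dusp16, a phosphatase selective for JNK and p38, was highest with Pam3CSK4 after MDP. It was at 8.51 in naive unstimulated cells, 8.92 in naive cells given MDP, 9.60 in naive cells given Pam3CSK4, 8.55 with MDP after MDP, 10.32 with Pam3CSK4 after MDP, 9.45 with MDP after Pam3CSK4 and 9.17 with Pam3CSK4 after Pam3CSK4. Cells that met Pam3CSK4 at either time lay at 9.17 or above and those that did not at 8.92 or below. The naive difference with Pam3CSK4 of 1.09 became 0.70 when the gene's probe sets were averaged and 0.32 with its other probe set alone. That other probe set was below the array median on all 7 arrays, at 3.71 to 4.06.

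Dusp10, the other member selective for JNK and p38, stayed near background. Its probe set was just below the array median in unstimulated cells, at 5.50, and between 5.67 and 5.92 on the other 6 arrays, and its other probe set was below the median on all 7. Dusp3, the small atypical member, ran from 10.44 with Pam3CSK4 after Pam3CSK4 to 10.99 in unstimulated cells, and its other probe sets spanned 0.37 and 0.17. Neither gene reached 2-fold in any comparison.

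**Figure D2:**
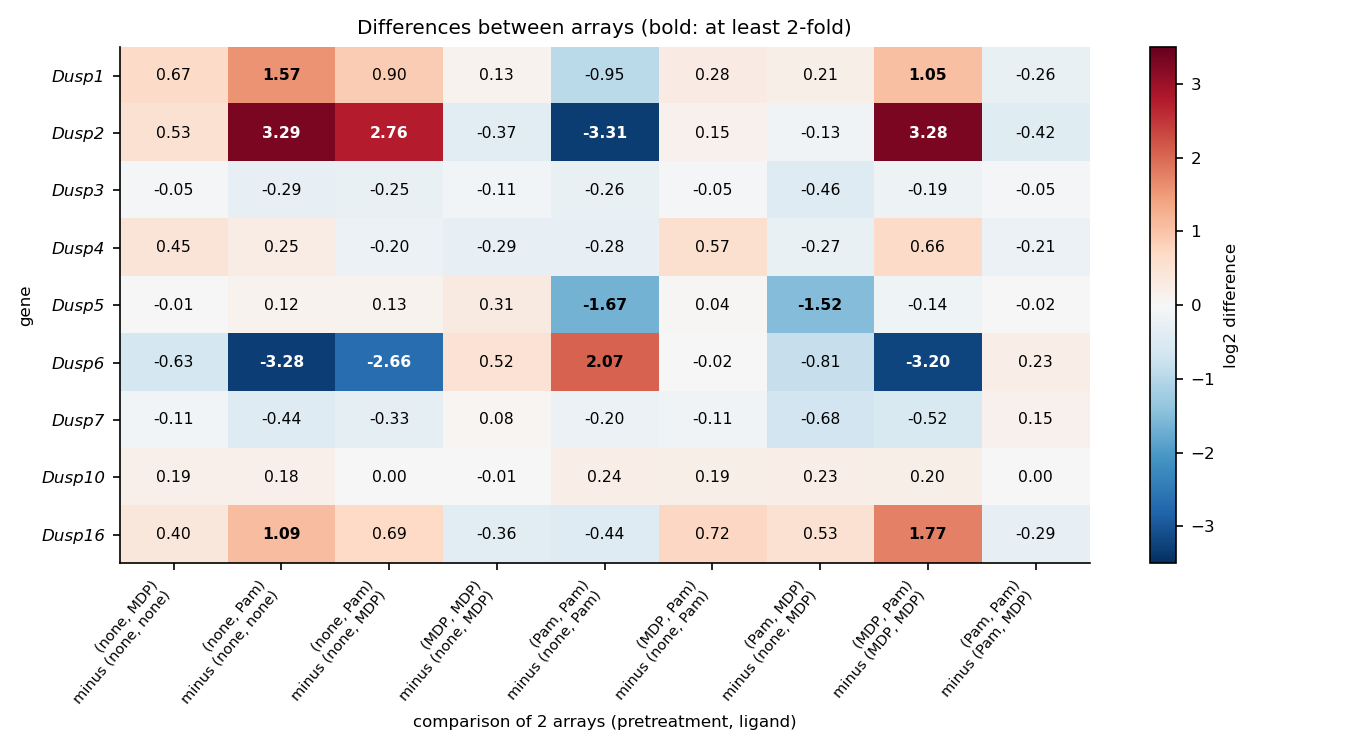
Log2 differences between pairs of arrays (columns, named by pretreatment and ligand, Pam is Pam3CSK4) for the 9 genes (rows), red where the array named at the top of the label is higher and blue where it is lower, with the value printed and in bold at 2-fold or more. Dusp2 and Dusp6 hold the largest values, from -3.31 to 3.29 for Dusp2 and from -3.28 to 2.07 for Dusp6. The bold cells of Dusp5 are in the 2 columns that set Pam3CSK4-pretreated against naive cells given the same ligand.

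Dusp2 and Dusp6 were the members that differed by 2-fold or more between the ligands in naive cells. In naive cells Pam3CSK4 gave 6.77-fold more Dusp2 signal than MDP did and 6.31-fold less Dusp6 signal. These were 1 of 9 members higher, against 1.4% of all genes, and 1 lower, against 0.709%. Dusp1 (1.87-fold) and Dusp16 (1.61-fold) were also higher with Pam3CSK4 than with MDP in naive cells, short of 2-fold. After MDP pretreatment the members called were the 4 that were called with Pam3CSK4 against unstimulated cells in naive cells. Dusp2 (9.74-fold), Dusp16 (3.41-fold) and Dusp1 (2.06-fold) were higher with Pam3CSK4 than with MDP, 3 of 9 members against 2.41% of genes, and Dusp6 was 9.19-fold lower, 1 of 9 against 1.42%. Dusp16 was short of 2-fold here when its probe sets were averaged (0.90) and with its other probe set (0.04). After Pam3CSK4 pretreatment no member was called, and over all genes 0% were higher and 0.0055% lower, so that few genes of any kind separated the 2 ligands there. The differences of Dusp2 and Dusp6 were then -0.42 and 0.23.

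After MDP pretreatment every member was within 2-fold of its naive level under the same ligand. With MDP given again no member was called against naive cells given MDP, where 0.385% of genes were higher and 0.291% lower. The members' differences ran from -0.37 for Dusp2, where 790 of the 18193 genes lay lower, to 0.52 for Dusp6, where 539 lay higher. With Pam3CSK4 after MDP no member was called against naive cells given Pam3CSK4, where 0.297% of genes were higher and 0.022% lower. Dusp16 (0.72) and Dusp4 (0.57) were the highest of the 9 there, and 167 and 348 genes lay higher still. Dusp2 and Dusp6 differed from their naive levels by 0.15 and -0.02. The members' median differences were -0.01 and 0.15, against -0.01 and 0.00 over all genes.

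Pam3CSK4 pretreatment went with levels of Dusp2, Dusp5 and Dusp6 that differed from naive cells given Pam3CSK4. With Pam3CSK4 given again Dusp6 was 4.20-fold higher, 1 of 9 members against 2.41% of all genes, and Dusp2 (9.93-fold) and Dusp5 (3.18-fold) were lower, 2 of 9 against 2.3%. With MDP after Pam3CSK4 no member was called higher than in naive cells given MDP, where 2.14% of genes were, and Dusp5 was 2.86-fold lower, 1 of 9 members against 1.71%. Dusp6 (-0.81) and Dusp7 (-0.68) were the next lowest and Dusp16 (0.53) the highest. The members' median differences were -0.28 and -0.27, and those of all genes 0.01 and 0.00. There was no culture with a pretreatment and no later ligand, so the level left by the pretreatment and the response to the later ligand cannot be told apart. The comparisons with naive cells given Pam3CSK4 share that array with the comparison against unstimulated cells, so a high or low value on it enters each of them.

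**Figure D3:**
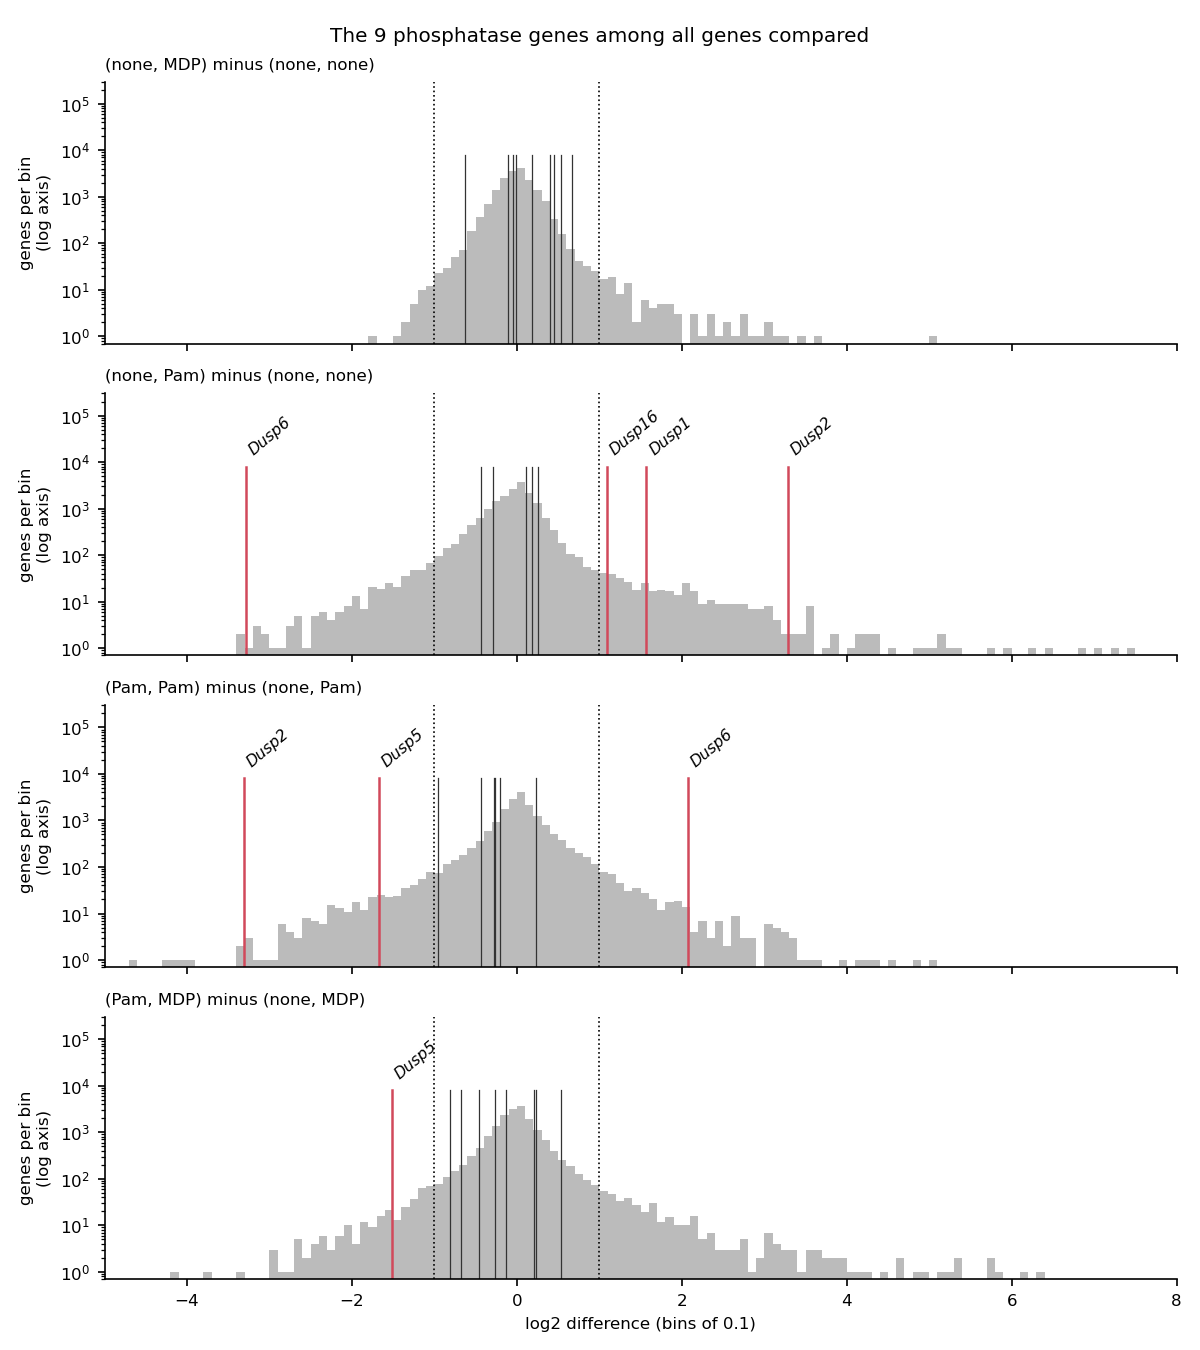
Number of genes per bin of 0.1 (vertical axis, log scale) over the log2 difference between 2 arrays (horizontal axis) for all 18193 genes in 4 comparisons, with a vertical line for each of the 9 phosphatase genes, red and named at 2-fold or more. Dotted lines mark 2-fold. All 9 lie inside the dotted lines for MDP in naive cells, while Dusp6 (-3.28) and Dusp2 (3.29) lie in the tails for Pam3CSK4.

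Kinases of the same pathway were measured for 27 of 31 genes listed. In naive cells given Pam3CSK4, 1 was at least 2-fold higher and 1 lower, where 2.27% and 1.95% of all genes were. The shares of all genes given here for a comparison hold for the lists below too. Map3k8, the kinase that links Toll-like receptors to ERK, was at 7.45 in unstimulated cells and 9.28 with Pam3CSK4 (3.55-fold). Map3k4, at -1.05, lost the 2-fold mark when arrays were centred on housekeeping genes (-0.96) and when its probe sets were averaged (-0.72). After Pam3CSK4 pretreatment Map3k8 was at 9.63 with MDP and 9.38 with Pam3CSK4, which was 4.38-fold above naive cells for MDP. The p38 activator Map2k3 was below its naive level by 2.27-fold with Pam3CSK4 and by 2.04-fold with MDP, where centring on housekeeping genes gave -0.95. Map3k5 was lower too (-1.04 with Pam3CSK4, or -0.95 with 32 added to the linear values, and -1.16 with MDP). Thus 0 of 27 were higher and 2 lower with Pam3CSK4, against 2.41% and 2.3% of all genes. With MDP 1 was higher and 2 lower, against 2.14% and 1.71%. No gene of this list was called for MDP in naive cells, or after MDP pretreatment against naive cells under the same ligand.

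Kinases that MAP kinases activate were measured for 7 of 10 genes listed, and 3 were at least 2-fold higher and 1 lower in naive cells given Pam3CSK4. Mapkapk2, the p38-activated kinase that stabilises cytokine messengers, was 2.81-fold higher, Rps6ka5, a nuclear kinase that acts on CREB and histones, 2.66-fold, and Mapkapk3, named after its values were seen, 2.09-fold. Mknk2 was 2.49-fold lower, or -0.97 on the log2 scale when probe sets with names ending in _a_at, _s_at or _x_at were left out. With Pam3CSK4 given again these 3 were lower than in naive cells given it, Mapkapk2 by 2.35-fold, Mapkapk3 by 2.40-fold and Rps6ka5 by at least 2.94-fold, its value there being below the array median. Mknk2, named after its values were seen, was 2.01-fold higher. No gene of the list was called in the other comparisons with naive cells given the same ligand or for MDP in naive cells.

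Inhibitors of the ERK pathway other than the members were measured for 13 of 14 genes listed, and Pam3CSK4 in naive cells gave 1 higher and 2 lower. Errfi1, an inhibitor of the EGF receptor, went from 8.31 to 11.04 (6.66-fold higher). Rasa3, which turns off Ras, went from 10.37 to 8.64 (3.33-fold lower), and Spry2, a Sprouty inhibitor, from 9.12 to 7.78 (2.53-fold lower, or -0.63 on the log2 scale when its probe sets were averaged). With Pam3CSK4 given again Errfi1 was 6.76-fold below naive cells given it and was the only gene of this list called. No gene of the list was called for MDP in naive cells, nor for MDP after MDP, Pam3CSK4 after MDP or MDP after Pam3CSK4 against naive cells under the same ligand. Of 7 phosphatases outside the dual specificity family that act on MAP kinases, none was called in these comparisons.

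Immediate early genes downstream of MAP kinases were all measured, 20 of 20. In naive cells given Pam3CSK4, 3 were higher, Junb (4.05-fold), the survival gene Ier3 (4.03-fold) and, named after its values were seen, the zinc finger factor Egr2 (3.32-fold), and 1 was lower, Etv5 (3.72-fold), an ETS factor that, like Dusp6, is a known target of ERK signalling. With Pam3CSK4 given again 5 were lower than in naive cells given it and 2 higher. Egr2 was at least 12.7-fold lower, with its value below the array median, Ier2 3.33-fold lower and Myc 2.45-fold lower. Named after their values were seen, Junb (2.30-fold) and Fosl2 (2.27-fold) were the other lower genes, and Etv5 (2.11-fold) and Atf3 (2.03-fold) were the higher ones. With MDP after Pam3CSK4, 4 were lower than in naive cells given MDP, Egr2 (at least 6.40-fold), Fosl2 (2.29-fold, or -0.81 on the log2 scale when its probe sets were averaged), Ier2 (2.21-fold) and, named after its values were seen, Fos (2.15-fold). None was called for MDP in naive cells, or after MDP pretreatment against naive cells under the same ligand.

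**Figure D4:**
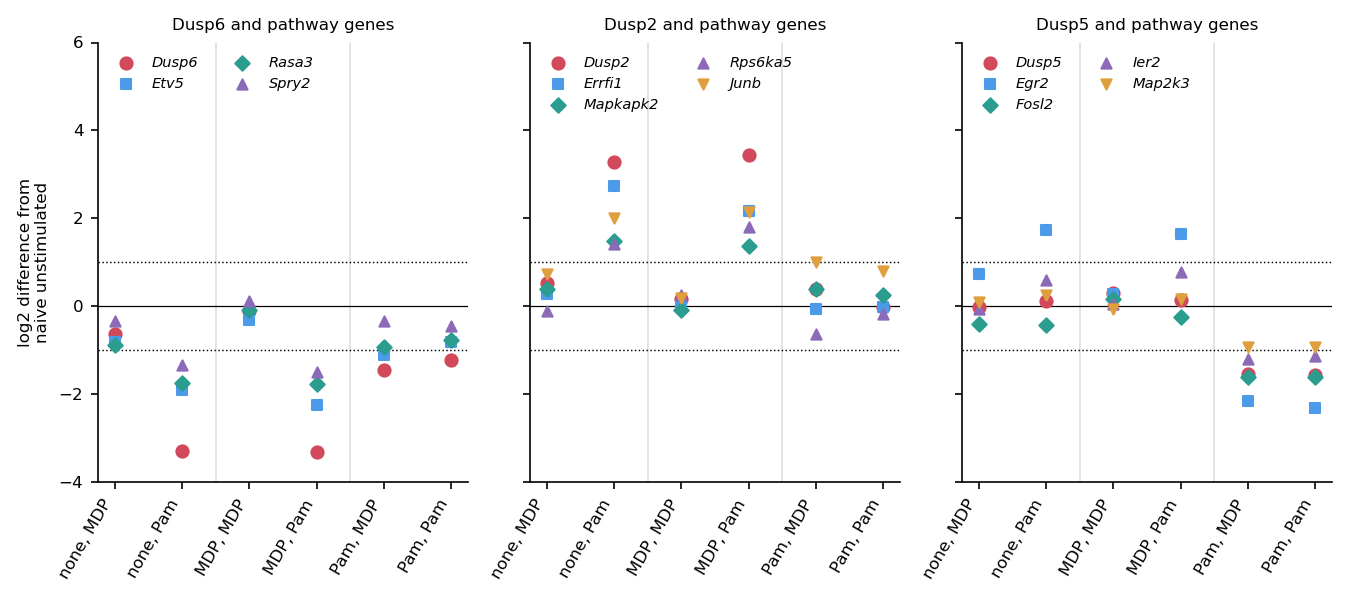
Log2 difference from naive unstimulated cells (vertical axis) on the 6 other arrays, labelled by pretreatment and ligand (Pam is Pam3CSK4), for Dusp6 with Etv5, Rasa3 and Spry2, for Dusp2 with Errfi1, Mapkapk2, Rps6ka5 and Junb, and for Dusp5 with Egr2, Fosl2, Ier2 and Map2k3. Dotted lines mark 2-fold, deposited values are drawn also where they are below the array median (Egr2 after Pam3CSK4 pretreatment, for example), and the pathway genes were placed beside a member after their values were seen. In the left panel the lowest points are those of Pam3CSK4 without Pam3CSK4 pretreatment, and in the right panel those of both Pam3CSK4-pretreated cultures.

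Inflammatory genes whose expression depends on MAP kinases, 13 of 13 measured, were higher with Pam3CSK4 in naive cells for 12 of 13, with a median difference of 3.57 against 0.00 for all genes, among them Il1b (181-fold). With MDP in naive cells 3 were higher, Il1b (8.36-fold), Il1a (at least 3.67-fold) and Cxcl2 (5.34-fold). With Pam3CSK4 given again 8 of 13 were lower than in naive cells given it, including Ptgs2 (4.56-fold) and Il1b (4.16-fold), and none was higher. Il12b is among the 12 and among the 8, though it was below the array median in unstimulated cells (3.74) and with Pam3CSK4 given again (4.06). With Pam3CSK4 in naive cells it was at 6.37, short of 2-fold above the unstimulated array's median of 5.50. With Pam3CSK4 given again its bound was at least 1.78-fold, also short of 2-fold. With MDP after Pam3CSK4, 10 of 13 were higher than in naive cells given MDP, including Il6 (at least 24.8-fold). With MDP after MDP, 1 of 13 was lower than in naive cells given MDP, Il1a (2.75-fold), and none was higher. The list median there was -0.35, against -0.01 for all genes. No gene of the list was called with Pam3CSK4 after MDP against naive cells given Pam3CSK4. For comparison, Dusp1 was 1.94-fold lower with Pam3CSK4 given again and 1.16-fold higher with MDP after Pam3CSK4, against naive cells given the same ligand.

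The 17 other dual specificity phosphatase genes on the array gave few calls. In naive cells none was called with MDP, and with Pam3CSK4 only Dusp9 was 2-fold lower, from 5.94 to a value below the array median, which leaves a bound of at least 1.31-fold. With Pam3CSK4 after MDP, Dusp14 was 2.05-fold above naive cells given Pam3CSK4, or 0.83 on the log2 scale with 32 added to the linear values. None of the 17 was called in the other comparisons of pretreated with naive cells under the same ligand.

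For the members that spanned 2 or more on the log2 scale, Dusp2 and Dusp6, the 3 genes with the most similar profile were sought among 1937 genes that spanned at least 1. Similarity was the root mean square difference over the 7 arrays after centring each gene on its own mean. Among the nearest to Dusp2, whose root mean square about its own mean was 1.44, was Exoc3l4 (0.24). Exoc3l4 was at 7.17 in unstimulated cells, 8.31 in naive cells given MDP, 10.35 and 10.61 with Pam3CSK4 in naive and in MDP-pretreated cells, and 7.11 with Pam3CSK4 after Pam3CSK4. Nearest to Dusp6, with 1.28 about its own mean, were the cannabinoid receptor gene Cnr2 (0.16), the thrombomodulin gene Thbd (0.16) and Mex3b (0.26), which encodes an RNA-binding protein. With Pam3CSK4 in naive and in MDP-pretreated cells Mex3b was below the array median, at 4.73 and 4.97, and cannot be told from background. Cnr2 was just above the median there, at 5.79 and 5.71. Thbd was at 9.52 in unstimulated cells, 6.32 and 6.52 with Pam3CSK4 in naive and MDP-pretreated cells, and 8.07 and 8.22 after Pam3CSK4 pretreatment, between those levels as Dusp6 was.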

How the data were processed

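The deposited values are log2 expression per probe set, 1 column for each of 7 arrays, made by the authors with RMA from affy per the submitters' processing notes; versions, and the set of arrays normalized together, are not given in the sources used here. Values ran from 2.95 to 15.1 over 45101 probe sets, of which 64 were controls, 34945 had 1 gene symbol in the platform table, 932 several and 9160 none. Values were used as deposited, and differences and folds were computed with Python 3.11.15, numpy 2.4.6 and pandas 2.3.3. The counting was tested on simulated data. Every label carries the replicate number 2, with 1 array per group, so the number of arrays limits the precision. Other arrays are not analysed here.

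The members and lists were chosen with earlier results of these data known. A difference was called at 2-fold, and also at 3-fold against unstimulated cells. Where 1 of 2 values was below its array's median, that median took its place and the fold is a bound ("at least"). Named were the members, up to 3 genes per pathway list and comparison with the largest difference past 2-fold, and the 3 nearest profiles of members spanning 2 or more, of which some are not reported here. All 9 members matched the RefSeq gene table, and promoters are from RefSeq (GRCm38.p6), without the 50 bases after the start. Alternatives were other scalings, probe set choices, 32 added to linear values, a filter on low values and a 3-fold threshold.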

Additional observations from a re-analysis of the deposited data

Results flagged for a closer look

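Some differences had opposite signs in 2 backgrounds, each background being 1 culture per ligand, and none of these differences between backgrounds was tested. For Dusp2 the difference of Pam3CSK4 from MDP was 2.76 in naive cells and 3.28 after MDP, on the log2 scale, but -0.42 after Pam3CSK4, which makes it -3.18 and -3.71 apart. For Dusp6 the same difference was -2.66 in naive cells, -3.20 after MDP and 0.23 after Pam3CSK4, 2.88 and 3.43 apart. Written the other way round, Pam3CSK4 pretreatment differed from none by 2.07 when Pam3CSK4 followed and by -0.81 when MDP followed, which is the same 2.88 from the same 4 arrays. For Dusp16 the difference of Pam3CSK4 from MDP was 1.77 after MDP and -0.29 after Pam3CSK4, -2.05 apart. For Dusp1 it was 1.05 and -0.26, -1.31 apart. The array of Pam3CSK4 after Pam3CSK4, on which the 18S controls stood 1.70 above unstimulated cells, enters all of them.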

How the results depend on the processing

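No paired analysis was possible because each group had 1 array and every label carries the same replicate number, and for the same reason no replicate could be left out in turn. Of 126 counts of members over the alternatives, 124 stayed within 1.5 times the count reported. At a 3-fold threshold the members higher with Pam3CSK4 in naive cells were 1 instead of 3, and those lower with MDP after Pam3CSK4 than in naive cells given MDP were 0 instead of 1. Of 819 differences of single members, 803 kept their side of the threshold, 14 fell short of it (Dusp16 with other probe sets, the rest at 3-fold) and 2 passed it, and none changed sign while called. Dusp16 lost its calls when its probe sets were averaged and with its other probe set, which was below the array median. For Pam3CSK4 against MDP after MDP it was 0.90 and 0.04, and for Pam3CSK4 after MDP against unstimulated cells 0.99 and 0.17. It passed 2-fold with MDP after Pam3CSK4 against unstimulated cells (1.03) when arrays were centred on housekeeping genes. Of 882 counts in pathway lists 823 stayed within 1.5 times, and of 735 differences of named pathway genes 651 kept their call. Scalings moved the genes by at most 0.09 in the 7 comparisons among naive cells or of pretreated with naive cells under the same ligand. Signals near the array median, as for Dusp10, limit what these arrays can show.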

Other observations

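For 3 members that spanned 1.5 but not 2 on the log2 scale, nearest profiles were looked up after the values were seen, as root mean square differences over the 7 arrays after centring. Dusp5, with 0.75 about its own mean, was nearest to Stmn1 (0.085), which encodes a microtubule-destabilising protein of dividing cells, Adgre5 (0.14), an adhesion receptor gene, and Atp2a3 (0.16), a calcium pump gene. Stmn1 was at 12.6 to 12.9 on the 5 arrays without Pam3CSK4 pretreatment and at 11.2 on each of the other 2. Dusp1, with 0.57, was nearest to Tnfrsf9 (0.15), a costimulatory receptor gene, Abtb2 (0.15) and the cell cycle inhibitor gene Cdkn1a (0.15). Tnfrsf9 was at 5.38 in unstimulated cells, below the array median. Cdkn1a was at 11.9 in unstimulated cells, 13.1 in naive cells given Pam3CSK4 and 13.3 with Pam3CSK4 after MDP. Dusp16, with 0.59, was nearest to Samsn1 (0.14), an adaptor gene of blood cells, Nos2 (0.14), the inducible nitric oxide synthase gene, and Sowahc (0.16). Nos2 was at 5.96 in unstimulated cells and 7.76 with Pam3CSK4 after MDP, where Dusp16 was also at its highest.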
